A study of Homo sapiens with 6 samples.

Results

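The human ZNF genes of chromosome 19 were followed in Jurkat cells exposed to bisphenol AF (BPAF), a fluorinated relative of bisphenol A. Members were the genes that GENCODE 29 (GRCh38) lists as protein-coding on chromosome 19 and whose current symbol is ZNF, a number and at most 1 further letter. This gave 247 genes of the 60856 features in the deposited tables. Jurkat is an established line of human leukemic T lymphocytes, labelled wild type, and all groups were grown in RPMI medium with serum. The control group, DMSO, held 3 libraries of cells given the solvent dimethyl sulfoxide at 0.1%, and the BPAF group held 3 libraries of cells given 1 µM BPAF. The sample labels state 12 h of exposure whereas the treatment protocol states 24 h, so the time is uncertain. The design text calls the libraries biological replicates, and the sources used here do not say whether the cultures were started separately.

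ZNF genes encode proteins with tandem zinc fingers, small folds in which paired cysteines and histidines hold a zinc ion and a short helix reads DNA bases. Many on chromosome 19 also carry a KRAB domain, which recruits the corepressor TRIM28 and through it the histone methyltransferase SETDB1, heterochromatin proteins and histone deacetylases. KRAB zinc finger proteins are best known for silencing transposable elements, and their genes multiplied by local duplication, so they stand in runs of related copies along the chromosome. A KRAB sequence pattern was found in the translated GENCODE transcripts of 202 of the 247 members, against 12 of 1161 other coding genes of the chromosome. Those other genes leave out 19 zinc finger genes with symbols such as ZFP or ZSCAN. The median member had 12 fingers by pattern, and ZNF208 had the most, 36.

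The coding units of single fingers show how alike and how different the members are. The units below belong to members whose transcripts changed in the comparison described later, 3 with the exact linker typical of the family and 3 without it. Each is the 84-base stretch from the first cysteine of a finger to the base before the next finger, 5′ to 3′ on the coding strand, taken from GENCODE 29 transcripts. Capitals mark the codons of the zinc-binding cysteines and histidines.
ZNF83: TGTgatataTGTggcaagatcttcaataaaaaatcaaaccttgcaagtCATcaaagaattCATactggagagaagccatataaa
ZNF700: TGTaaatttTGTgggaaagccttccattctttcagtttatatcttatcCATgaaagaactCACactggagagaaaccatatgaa
ZNF146: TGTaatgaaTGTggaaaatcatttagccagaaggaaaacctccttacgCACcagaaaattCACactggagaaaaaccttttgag
ZNF444: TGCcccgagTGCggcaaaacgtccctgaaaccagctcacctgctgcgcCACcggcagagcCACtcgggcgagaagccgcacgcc
ZNF579: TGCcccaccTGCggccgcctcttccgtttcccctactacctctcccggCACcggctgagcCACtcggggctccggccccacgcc
ZNF580: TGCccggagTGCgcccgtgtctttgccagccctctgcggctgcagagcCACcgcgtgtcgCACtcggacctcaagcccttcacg
On GRCh38 these exonic, protein-coding stretches lie at chr19:52614115-52614198 (ZNF83, minus strand), chr19:11948694-11948777 (ZNF700, plus) and chr19:36236660-36236743 (ZNF146, plus). The remaining units lie at chr19:56159758-56159841 (ZNF444, plus), chr19:55579421-55579504 (ZNF579, minus) and chr19:55642788-55642871 (ZNF580, plus). The units of ZNF83, ZNF700 and ZNF146 end in the linker typical of the family and had a GC content of 32.1%, 34.5% and 38.1%. Those of ZNF444, ZNF579 and ZNF580 lack an exact match to that linker and had 69.0%, 73.8% and 69.0% GC. The linker of the ZNF444 unit differs from it only in the residue of its first codon (tcg). The exact consensus linker followed 10 fingers of ZNF83, 10 of ZNF700, 4 of ZNF146 and 0 of ZNF444, ZNF579 and ZNF580. With the units of ZNF121, ZNF224 and ZNF749 included, units of the linker type were 54.8% to 71.4% identical to each other over 15 pairs. Units without the exact linker were 53.6% to 60.7% identical to each other over 3 pairs. Pairs that mixed the types were 29.8% to 48.8% identical over 18 pairs. The first finger with the exact linker was taken where a gene had any, so units of that type share linker bases by choice.

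Such repeats bear on the counts, because reads from related copies can be hard to place. Of the 247 members, 133 shared no 100-base window of their transcripts with another gene, and 37 shared over 10% of their windows. ZNF177 shared the most, 83.9%, with the read-through gene ZNF559-ZNF177. Deposited counts were not whole in at least 1 library for 79.3% of the tested members, against 64.4% of all genes tested. The origin of the fractions is not stated in the sources used here.

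Libraries held 20253656 to 22617613 counts after rounding, with overlap between the groups. All 15 T cell markers, among them CD3D, CD3E and LCK, were above 1 TPM (a level scaled for gene length and library). The summed T cell list was at 4186 to 4412 TPM in DMSO and 4347 to 4466 TPM in BPAF. The B cell markers MS4A1 and PAX5 had means of 0.005 and 0.0033 TPM, while CD79A, also on the B cell list, was at 22.4 TPM. The summed epithelial list was at 0.52 to 0.68 TPM in DMSO and 1.21 to 1.47 TPM in BPAF, with EPCAM, KRT19 and CDH1 at 0 in all libraries and KRT8 the highest, and its part in the results was not tested. The myeloid list summed to at most 0.93 TPM and the fibroblast list to at most 2.10 TPM in any library. In these bulk libraries fewer cells of a kind and less RNA per cell cannot be told apart.

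Most chromosome 19 ZNF genes were transcribed at low levels in Jurkat cells. Over the 6 libraries 113 members had a mean above 5 TPM, 57 lay between 1 and 5 TPM, 77 were below 1 TPM, and 10 had no count in any library. The median member was at 4.37 TPM, and the 184 members that passed the filter on low counts had a median of 6.22 TPM, against 19.1 TPM for all tested coding genes. ZNF146, whose small protein consists almost only of fingers, had the highest mean at 107 TPM, followed by ZNF428 at 92.2, ZNF83 at 37.8, ZNF317 at 35.5 and ZNF101 at 32.6 TPM. The 63 members that were not tested had means of at most 0.53 TPM.

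The level differed among the runs of neighbouring genes. Members more than 1 Mb apart were assigned to different runs, which gave 16 runs, and 7 of these held 15 or more genes. The run between 7069444 and 9793180 (run 2) had a median of 10.7 TPM and 13 of its 15 genes were tested. The run at the end of the long arm, 55476332 to 58481230 (run 16), had a median of 6.31 TPM and 52 of its 59 genes were tested. The run at 19668796 to 24129961 (run 5), which holds ZNF91, had a median of 1.16 TPM, with 19 of 37 tested. Run 12, at 43525497 to 45076588, had the lowest median of the 7, 0.61 TPM, with 13 of 24 tested and 4 of its genes, ZNF155, ZNF284, ZNF112 and ZNF229, listed at 0 in every library. Within each of the 7 runs single genes ranged from below 0.1 TPM to above 10 TPM.

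The main comparison asked which of these genes changed with BPAF. Changes were few and small: 8 members rose and 1 fell among the 184 tested (edgeR quasi-likelihood test, Benjamini-Hochberg adjusted p under 0.05 over 15490 genes). That is 4.89% of tested members, against 6.06% of all genes tested, so the share called was near the background. By direction, 4.35% of members rose against a background of 2.65%, and 0.543% fell against 3.4%. The 8 that rose were ZNF444, ZNF700, ZNF83, ZNF749, ZNF580, ZNF224, ZNF579 and ZNF121, by 1.11-fold to 1.33-fold, and the one that fell was ZNF146, to 0.921 of its DMSO level. The number called higher was 4 without DMSO replicate 1, 5 without DMSO replicate 3, 3 without BPAF replicate 1 and 2 without BPAF replicate 3. ZNF146 kept its call only without DMSO replicate 2 in these fits. Over all genes tested, the share called with 1 library left out was 2.04% to 5.42%, also below 6.06%. DESeq2 called 4 members higher and 0 lower, 2.17% against 4.45% of all genes tested. Limma on the deposited TPM values called 0 members, with 30 or 31 at an unadjusted p under 0.05 against 31 in edgeR. Of all 15490 genes tested, 2675 or 2705 were at that p with TPM, against 3076 in edgeR. Those TPM fits called only 1 or 2 of all genes tested, so their 0 says nothing particular about the members.

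**Figure D1:**
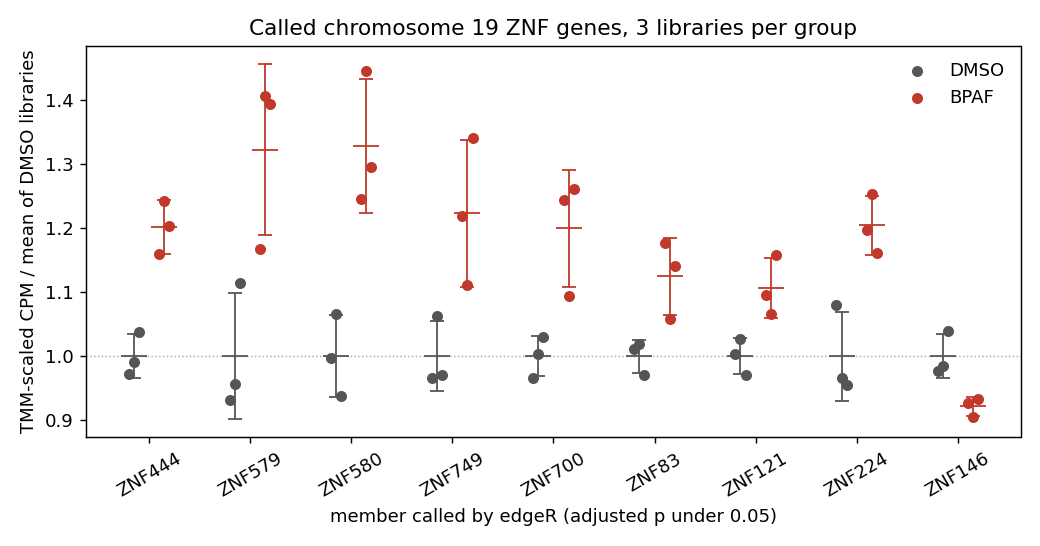
TMM-scaled CPM of each library divided by the mean of the 3 DMSO libraries, for the 9 members called by edgeR; points are libraries, and bars are the mean and SD of 3. All BPAF points of the 8 rising genes lie above all their DMSO points, and those of ZNF146 lie below.

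ZNF444 encodes a protein with few fingers and a SCAN domain, which pairs zinc finger proteins, in place of a KRAB domain. ZNF444 (ENSG00000167685, chromosome 19, 56132599 to 56160893) was at 52.9, 53.9 and 56.5 CPM (counts scaled to library size with TMM factors) in DMSO and at 63.1, 67.7 and 65.5 CPM in BPAF. The groups did not overlap, and every BPAF library was above 63 CPM. The log2 fold change was 0.27 with a standard error (SE) of 0.047 (edgeR adjusted p = 0.00235). All 6 leave-one-out fits called it, with an edgeR adjusted p of at most 0.0221, as did DESeq2 with its filter off (adjusted p = 0.00121). It did not pass with TPM (limma adjusted p = 0.0845 with 1 added), a fit that called 1 of all genes tested.

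ZNF579 and ZNF580 lie near each other and near ZNF444 in run 16, and like ZNF444 they have no KRAB pattern and GC-rich fingers. ZNF579 (55576770 to 55580845) was at 8.14, 8.36 and 9.74 CPM in DMSO and at 10.2, 12.3 and 12.2 CPM in BPAF, with a log2 fold change of 0.40 with an SE of 0.11 (edgeR adjusted p = 0.0355). It is the single called member whose deposited counts were whole in all libraries. ZNF580 (55635016 to 55643469) was at 8.56, 9.14 and 8.04 CPM in DMSO and at 10.7, 12.4 and 11.1 CPM in BPAF, with a log2 fold change of 0.41 with an SE of 0.11 (edgeR adjusted p = 0.0258). The groups did not overlap for either gene, and the lowest BPAF library stood only slightly above the highest DMSO library for ZNF579. The counts of ZNF580 are uncertain, because it shares exon sequence on the same strand with ZNF581 and CCDC106. ZNF581 was at 20.5, 15.9 and 15.2 CPM in DMSO and at 16.3, 15.9 and 17.1 CPM in BPAF. The sum of ZNF580 and ZNF581, formed after their values were seen, was 25.7 ± 3.00 CPM in DMSO and 27.8 ± 0.75 CPM in BPAF (SD, n = 3), with overlap. With its filter off, DESeq2 called neither ZNF579 (adjusted p = 0.0835) nor ZNF580 (adjusted p = 0.0658). Of the 6 leave-one-out fits, 2 called ZNF579 and 1 called ZNF580.

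ZNF749, further along the same run (57435329 to 57445485), was at 34.4, 37.9 and 34.6 CPM in DMSO and at 43.4, 39.6 and 47.7 CPM in BPAF. BPAF replicate 2 was the lowest BPAF library and lay close to the highest DMSO library. The log2 fold change was 0.29 with an SE of 0.066 (edgeR adjusted p = 0.0127), and 3 of the 6 leave-one-out fits called it. It shares 8.37% of its 100-base windows with the overlapping gene AC003002.2. The sum of the pair was 39.2 ± 2.31 CPM in DMSO and 47.3 ± 4.05 CPM in BPAF (SD, n = 3), with no overlap. Also in run 16, the related copies ZNF587B and ZNF587 narrowly missed the threshold, with log2 fold changes of 0.18 and 0.30 (edgeR adjusted p = 0.0520 and 0.0595), and both are named after their values were seen. Their summed level was 44.7, 45.8 and 44.0 CPM in DMSO and 50.7, 51.8 and 53.1 CPM in BPAF.

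The called members with a KRAB pattern were ZNF700, ZNF83 and ZNF224, all higher in BPAF. ZNF700 (11925068 to 11950773, on the short arm) was at 58.8, 61.1 and 62.7 CPM in DMSO and at 75.7, 66.6 and 76.8 CPM in BPAF, so that BPAF replicate 2 was again the lowest of its group. Its log2 fold change was 0.26 with an SE of 0.052 (edgeR adjusted p = 0.00538), and all 6 leave-one-out fits called it. ZNF700 overlaps AC008770.2 on the same strand, with which it shares 11.6% of its windows. Their sum was 77.9 ± 0.36 CPM in DMSO and 92.5 ± 7.63 CPM in BPAF (SD, n = 3), with no overlap. ZNF83 (52594060 to 52690496) was at 140.3, 141.6 and 134.8 CPM in DMSO and at 163.4, 146.9 and 158.3 CPM in BPAF, with a log2 fold change of 0.17 with an SE of 0.038 (edgeR adjusted p = 0.0121). ZNF83 shares no 100-base window with another gene. ZNF224, a repressor described as a partner of the tumour suppressor WT1 (44094339 to 44109886), was at 23.7, 21.2 and 20.9 CPM in DMSO and at 26.2, 27.5 and 25.4 CPM in BPAF. Its log2 fold change was 0.27 with an SE of 0.070 (edgeR adjusted p = 0.0267). Of the 6 leave-one-out fits, 3 called ZNF83 and 1 called ZNF224, and DESeq2 called ZNF83 but not ZNF224 (adjusted p = 0.0567).

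The remaining calls were ZNF121 and ZNF146, neither with a KRAB pattern. ZNF121 (9560353 to 9584533) was at 80.9, 82.9 and 78.3 CPM in DMSO and at 88.4, 86.0 and 93.4 CPM in BPAF without overlap, a log2 fold change of 0.15 with an SE of 0.042 (edgeR adjusted p = 0.0432). ZNF146 (36214602 to 36238774) was at 173.1, 174.4 and 184.3 CPM in DMSO and at 164.1, 160.4 and 165.3 CPM in BPAF, and its log2 fold change was -0.12 with an SE of 0.033 (edgeR adjusted p = 0.0369). In TPM the groups overlapped in level, with 106.6 ± 5.82 TPM in DMSO and 106.5 ± 3.40 TPM in BPAF (SD, n = 3). ZNF146 was not called with TPM plus 1, where its log2 fold change was -0.00048 (limma adjusted p = 0.998). In that fit the median of all genes tested was 0.078 and 1 gene was called. With upper quartile scaling of the counts the log2 fold change of ZNF146 was -0.11 and just missed the threshold (edgeR adjusted p = 0.0601). For ZNF121, DESeq2 with its filter off gave an adjusted p of 0.106, and 2 of the 6 leave-one-out fits called it. For ZNF146 1 of the 6 did.

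Across all tested members, 125 had a log2 fold change above 0 and 59 below, 67.9% above against 50.8% of all genes tested and 45.8% of all coding genes. The median was 0.05 (quartiles -0.02 and 0.16), where that of all genes tested was 0.0019. Groups did not overlap for 19.6% of tested members, 25 higher and 11 lower in BPAF, against 24.8% of all genes tested. By direction the backgrounds were 12% higher and 12.8% lower, and the members had 13.6% and 5.98%. For comparison, the 213 tested ZNF genes on other chromosomes had a median of 0.011, with 54.0% above 0, 10 called higher and 2 lower. The 722 other tested coding genes of chromosome 19, again without zinc finger genes such as ZFP or ZSCAN, had a median of 0.0028. Of them 51.1% were above 0 and 15 were called in each direction. No test was made between these lists.

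**Figure D2:**
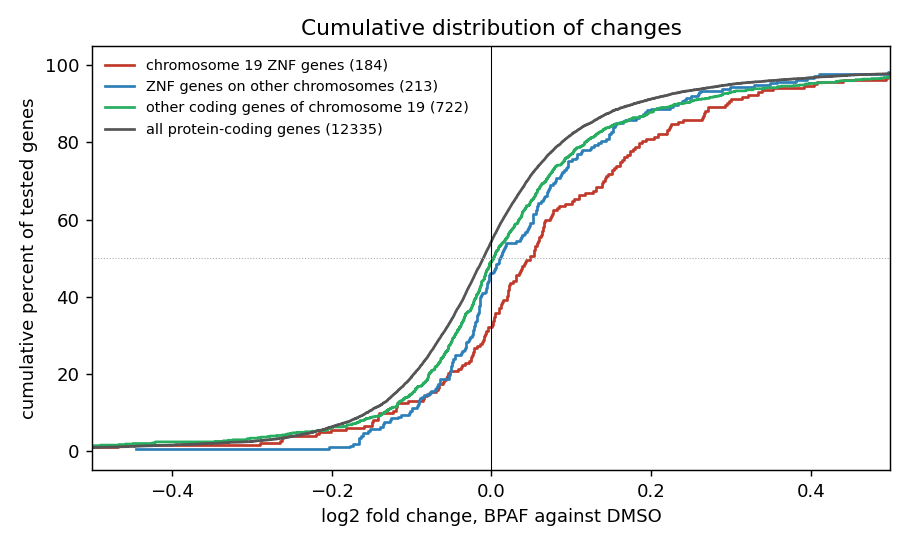
Cumulative percent of tested genes (vertical) by log2 fold change of BPAF against DMSO (horizontal, shown from -0.5 to 0.5) for 4 lists. The curve of the 184 chromosome 19 ZNF genes lies to the right of the others over the middle of the range, crossing 50% at 0.05, where all protein-coding genes cross at -0.010.

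The summed level of the 247 members was 1616, 1645 and 1595 TPM in DMSO and 1794, 1716 and 1791 TPM in BPAF. In counts, the members took 0.341%, 0.337% and 0.334% of the DMSO libraries and 0.359%, 0.348% and 0.365% of the BPAF libraries. Every BPAF library was above every DMSO library on both of these scales, with BPAF replicate 2 the lowest of its group. The count shares are of raw totals, without the TMM factors, which were 0.982 to 0.992 in DMSO and 1.008 to 1.016 in BPAF. Scaling with those factors would bring the groups closer. The median over tested members of each library's log2 CPM (0.5 added) minus the DMSO mean did overlap. It was 0.021, -0.016 and -0.0068 in DMSO and 0.087, 0.020 and 0.050 in BPAF, so that BPAF replicate 2 lay at the level of DMSO replicate 1. The median of all genes tested also lay above 0 with TPM, at 0.078 with 1 added before the log2. On that scale the median of the tested members was 0.11.

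Base composition moved with the fold change across coding genes. Among coding genes that are no members, the median log2 fold change went from -0.050 at a GC content of 35% to 40% up to 0.016 at 60% to 65%. The members lay above those medians in the same intervals: 0.021 for 47 members at 35% to 40%, 0.051 for 74 at 40% to 45% (others -0.032), and 0.067 for 31 at 45% to 50% (others -0.0097). In the lowest interval, 30% to 35%, 3 members had a median of -0.081 and the others -0.078. Among the 29 tested members with at least 50% GC, 3 rose (ZNF444, ZNF579 and ZNF580) and 0 fell, and 23 had a value above 0. Of the 155 with lower GC, 5 rose and 1 fell, and 102 were above 0. Of the other coding genes, 2.48% rose and 55.1% were above 0 at 50% GC or more, and 1.28% rose, 6.28% fell and 37% were above 0 at lower GC. This split was chosen after the values were seen. After a correction for transcript length and GC, the median of the members was 0.030 and that of all genes tested -0.027, and ZNF579 had a log2 fold change of 0.35 against 0.40 without the correction and narrowly missed the threshold (edgeR adjusted p = 0.0506). ZNF444 (edgeR adjusted p = 0.00393) and ZNF580 (edgeR adjusted p = 0.0321) passed. The part of base composition in these changes beyond this correction was not tested.

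**Figure D3:**
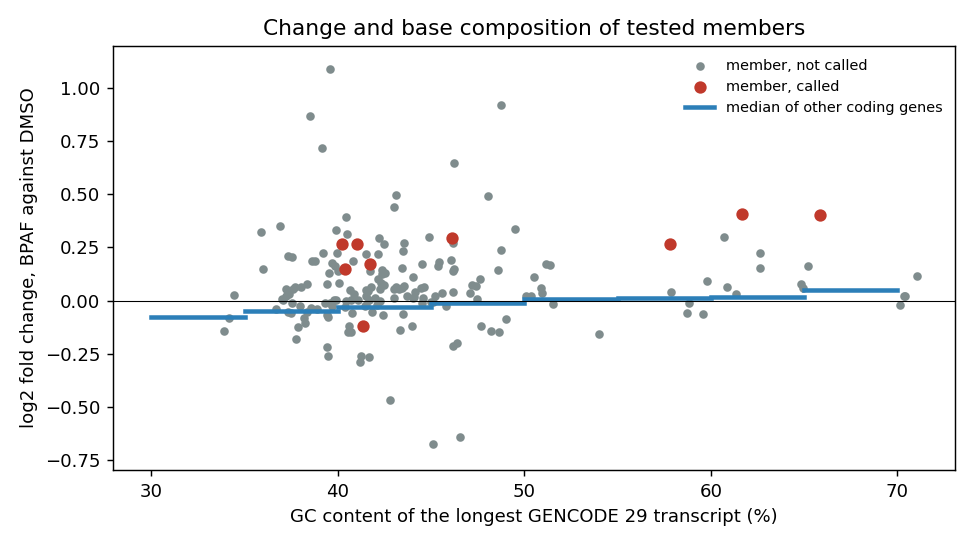
Log2 fold change of BPAF against DMSO (vertical) by GC content of the longest GENCODE 29 transcript (horizontal) for each tested member; blue bars are medians of other coding genes in steps of 5 percentage points. The blue bars climb with GC content, and the called members ZNF444, ZNF580 and ZNF579 sit at 57.8%, 61.7% and 65.8% GC.

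Calls were spread over the chromosome, with 2 of 58 tested members called on the short arm and 7 of 126 on the long arm. Run 16 held 4 of the 8 rises, ZNF579, ZNF580, ZNF444 and ZNF749, among 52 tested genes, or 7.69%, against 2.65% higher among all genes tested. Run 16 had a median log2 fold change of 0.07, and 40 of its 52 genes (76.9%) were above 0, against 67.9% of all tested members and 50.8% of all genes tested. Run 3, at 11483427 to 12640098, held ZNF700 and had a median of 0.10 over 21 genes. Run 9, at 36182060 to 37817300, held ZNF146 and had a median of 0.0039 over 24 genes. In run 5 there were 0 calls among 19 genes with a median of 0.03, and 3 were at an unadjusted edgeR p under 0.05. All genes tested held 3076 of 15490 at that p. Single genes of run 16 ranged from -0.64 to 0.92, both ends at low counts and not called.

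**Figure D4:**
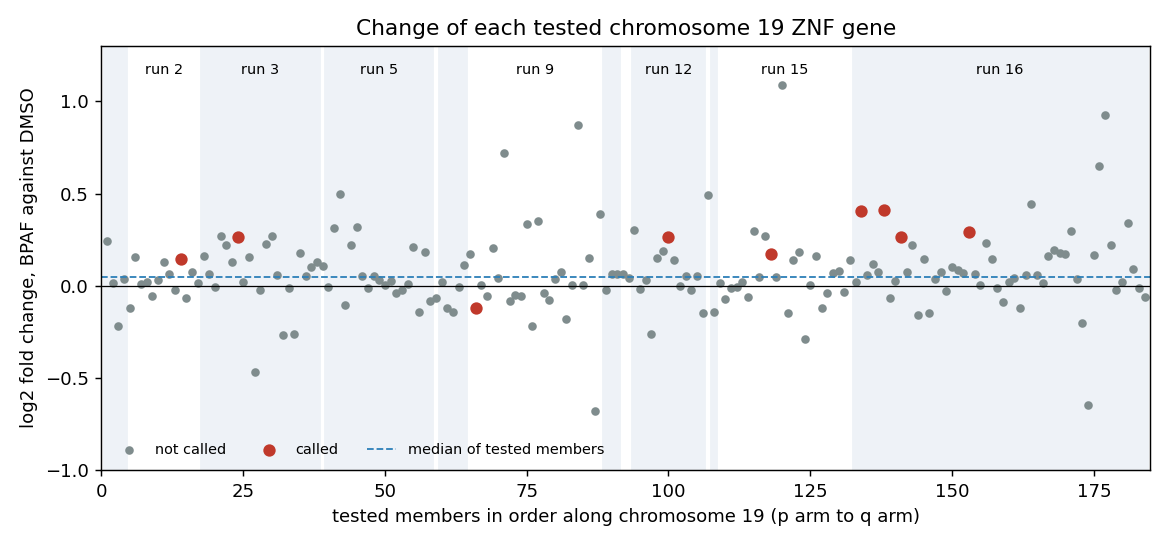
Log2 fold change of BPAF against DMSO (vertical) for the 184 tested members in their order along chromosome 19 (horizontal, rank only); shading alternates between runs, and red points are the 9 called members. Called members lie in 6 of the runs, 4 of them in run 16, and the dashed line is the median of 0.05.

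Members were also split by KRAB pattern, with no test between the groups. The pattern is a single strict sequence match, so members without it may still encode a KRAB domain. The split is therefore not one of genes with and without the domain. The 146 tested members with a KRAB pattern had a median of 0.05, with 3 called higher and 0 lower, 2.05% in all. The 38 tested members without it had a median of 0.06, with 5 called higher and 1 lower, 15.8% in all. Of all genes tested 6.06% were called, 2.65% higher and 3.4% lower. Members without the pattern also had a higher typical level, a median of 9.29 TPM against 3.43 TPM over all members of each kind, and the part of level in this was not tested. By number of fingers, 4 rises were among the 50 tested members with up to 9 fingers, 2 rises and the fall among 80 with 10 to 14, and 2 rises among 54 with 15 or more. All 9 calls were among the 113 members above 5 TPM. The 38 tested members with whole counts had a median of 0.04 and 1 call.

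Several members outside the calls had larger fold changes at low or uneven counts. ZNF461 was at 1.24, 2.09 and 2.83 CPM in DMSO and at 2.96, 3.29 and 3.83 CPM in BPAF, with a log2 fold change of 0.72 with an SE of 0.25 (edgeR adjusted p = 0.0951). Its groups did not overlap, but the lowest BPAF and highest DMSO library differed by little. ZNF506 (0.50) and ZNF154 (0.44) had edgeR adjusted p of 0.181 and 0.283. In the other direction, ZNF607 had a log2 fold change of -0.68 with an SE of 0.73, and its libraries were at 7.09, 7.54 and 2.29 CPM in DMSO and 6.43, 1.62 and 2.53 CPM in BPAF. Each group of ZNF607 thus held libraries both high and low. The counts of ZNF607 were not whole in any library, and it shares 11.8% of its windows with AC093227.2. ZNF816 (-0.29), ZNF442 (-0.26) and ZNF443 (-0.26) had edgeR adjusted p of 0.181, 0.618 and 0.142, and ZNF443 shares 18.5% of its windows with ZNF799.

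Of 14 members with a described role, 10 were tested, and ZNF224 and ZNF146 were those called. ZNF91, which silences SVA retroelements in human cells, was at 20.5, 22.5 and 22.7 CPM in DMSO and at 23.8, 20.5 and 21.6 CPM in BPAF (log2 fold change 0.0091, SE 0.075, edgeR adjusted p = 0.972). The groups overlapped almost completely. ZNF274, which brings SETDB1 to the ends of other zinc finger genes, had a log2 fold change of 0.17 with an SE of 0.11 (adjusted p = 0.438). ZNF675, which encodes an inhibitor of TRAF6 signalling, had 0.21 with an SE of 0.073 and did not pass (adjusted p = 0.101). ZNF331 was at 42.5, 41.3 and 42.6 CPM in DMSO and at 47.1, 44.7 and 47.5 CPM in BPAF without overlap, and did not pass either (log2 fold change 0.14, adjusted p = 0.107). For ZNF420 the value was -0.04, for ZNF382 0.04, for ZNF383 -0.08 and for ZNF85 0.32, with adjusted p from 0.633 to 0.902. ZNF93, which silences LINE elements, ZNF350, a partner of BRCA1, ZNF649 and ZNF536, a regulator of neuronal differentiation, had at most 6 counts in any library. Of the most abundant members that were not called, ZNF428 (0.03), ZNF317 (0.02) and ZNF101 (-0.0075) had edgeR adjusted p from 0.799 to 0.964, and their sign changed in some alternative fits.

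On a list of 44 KRAB cofactors and other chromatin genes, called the cofactor list here, the few calls were falls. It also holds genes such as DNMT1, DNMT3A and the zinc finger gene ZNF445, so it is wider than the KRAB cofactors themselves. Of 43 tested genes on the cofactor list, 0 rose and 5 fell, or 11.6%. Falls made up 3.4% of all genes tested and 4.14% of coding genes. The list median was -0.02, where that of coding genes was -0.010. At an unadjusted edgeR p under 0.05, 3 of the list were higher and 6 lower. Of all 15490 genes tested, 1450 were higher and 1626 lower at that p. All 6 leave-one-out fits called H3-3A and SUMO2, while 3 called HDAC2 and 2 called H3-3B. Without BPAF replicate 1 the latter pair had edgeR adjusted p of 0.127 and 0.221, and with upper quartile scaling H3-3B had 0.0540. TRIM28, the corepressor that KRAB domains bind, was at 466.8, 479.7 and 473.1 CPM in DMSO and at 468.5, 491.8 and 451.1 CPM in BPAF. Its groups overlapped, with a log2 fold change of -0.0085 and an SE of 0.031 (edgeR adjusted p = 0.928), and its sign changed with upper quartile scaling and TPM. SETDB1 had a log2 fold change of 0.08 with an SE of 0.046 (adjusted p = 0.388). The falls were those of H3-3A (-0.15) and H3-3B (-0.11), which encode the histone variant H3.3, SUMO2 (-0.15), a small modifier protein, the deacetylase gene HDAC2 (-0.11) and the heterochromatin protein gene CBX3 (-0.10), with edgeR adjusted p from 0.00371 to 0.0477. CBX3 was named after its values were seen. SUMO2, HDAC2 and H3-3B had values of 0.0075, 5.5e-05 and 0.10 on the log2 scale with TPM plus 1, so their sign against 0 depended on the unit. The median of all genes tested was 0.078 on that scale. SUMO2 and HDAC2 stayed below that median, and H3-3B lay above it.

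Promoters of the members were searched for motifs, since the series title places the study in estrogen signalling. RefSeq promoters (GRCh38.p14, 300 bases around a start) matched 216 of the 247 members by symbol, in 268 records. On either strand, the full estrogen response element (GGTCA, any 3 bases, TGACC) was in 0 of the 268, and in 20 of all 35116 promoters, 0.057%. The AP-1 motif TGANTCA was in 16 of the 268 (5.97%), against 7.71% of all promoters. Of the called members it was found for ZNF83, in 2 records. The GC box GGGCGG was in 174 of the 268 (64.9%), against 45% of all. These letters are a description of the windows searched and say nothing on binding.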

How the data were processed

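Messenger RNA of 6 Jurkat libraries was selected with oligo(dT) and sequenced paired-end from stranded libraries, per the labels' protocols. Per the submitters' processing notes, HISAT2, featureCounts, cutadapt and FastQC were used with build GRCh38 (hg38); versions are not given there. The deposited count table holds estimated counts with decimals. The authors' deposited TPM values are scaled for length and library. The annotation and the TPM method are not given in the sources used here. Of the features, 192 carry no Ensembl identifier (0.243% to 0.271% of counts), and 58396 identifiers matched GENCODE 29, used for coordinates, classes, exon overlap and translated features.

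Rounded counts that passed filterByExpr were TMM-normalized and tested over all genes in edgeR 4.0.16 (quasi-likelihood, robust, no covariate) in R 4.3.3, with Benjamini-Hochberg adjustment at 0.05. SE is the log2 fold change over the square root of F. Alternatives used limma 3.58.1 and DESeq2 1.42.0, other scalings and filters, a length and GC offset and each library left out. Tests were checked on simulated counts. All pairs of libraries differed beyond counting noise (chi-square over its degrees of freedom 2.42 to 8.06). P-values measure only the spread between these libraries.

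Members and gene lists were chosen with earlier results of these data known. Genes named were all called members, the 4 largest rises and falls by value where the average log2 CPM was 1 or more, the 5 highest by TPM, 14 members with a described role, TRIM28, SETDB1 and the 4 other cofactors with the smallest p; others are named as chosen after their values were seen. No protein table was used, so the KRAB pattern and fingers come from GENCODE transcripts. Both are strict sequence matches that can miss variant domains.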

Additional observations from a re-analysis of the deposited data

How the results depend on the processing

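The median log2 fold change of the members stayed above 0 in all alternatives run, from 0.030 with the length and GC offset to 0.11 with TPM plus 1 and 0.13 with TPM plus 0.1, where the median of all genes also moved. With 1 library left out it was 0.040 to 0.062, the members called higher were 2 to 6, and those called lower 0 to 1. The counts of members called higher and lower were 10 and 0 with upper quartile scaling, 11 and 0 with coding genes only, 8 and 2 with the length and GC offset, 4 and 0 with DESeq2 with or without its filter, and 0 and 0 with TPM plus 1 or plus 0.1. They were 1 and 0 among members with whole counts and 3 and 0 among those with the KRAB pattern, where fewer genes are counted. The cause of the other differences was not tested. Calls over all genes tested fell as well, to 4.45% with DESeq2 and to 2.04% to 5.42% with 1 library left out, against 6.06%. With upper quartile scaling 5.43% of members and 5.56% of all genes tested were called, and with coding genes only 5.98% and 5.4%. The length and GC offset gave 5.43% of members and 8.41% of all genes tested. With it 982 of all genes tested were called lower, against 527 in the main fit. With TPM plus 1 and plus 0.1 only 1 and 2 of all genes tested were called. With the replicate number as a block the members called higher and lower were 7 and 1, or 4.35%, against 5.33% of all genes tested. Same-numbered libraries had deviations correlated at -0.020, -0.0092 and 0.049, and not every library correlated best with its own number. Values so near 0 show no strong pairing, but cannot tell whether same-numbered cultures were started together.

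Signs were followed across the fits only for the genes named by the rules above, not for every tested member. Among those genes they changed for 6 members and TRIM28, none of them called, and for 3 called cofactors. How many other members changed sign was not counted. ZNF101 was at 0.0033 with upper quartile scaling, 0.0039 with coding genes only, 0.0092 and 0.0096 with TPM plus 1 and plus 0.1, and -0.045 to 0.015 with 1 library left out. ZNF317 and ZNF428 were at -0.023 and -0.035 with the offset, and ranged from -0.012 to 0.038 and from -0.025 to 0.072 with 1 library left out. ZNF91 ranged from -0.052 to 0.054, ZNF382 from -0.0037 to 0.071 and ZNF420 from -0.11 to 0.025 in those fits, and ZNF420 was at 0.021 and 0.022 with TPM. TRIM28 was at 0.0024 with upper quartile scaling, 0.0028 with coding genes only, 0.13 with TPM at either pseudocount, and -0.042 to 0.021 with 1 library left out. Of the called cofactors, with TPM plus 1 and plus 0.1, SUMO2 was at 0.0075 and 0.0075, HDAC2 at 5.5e-05 and 4.6e-05, and H3-3B at 0.097 and 0.097. The median of all genes tested was itself 0.078 and 0.089 in those 2 TPM fits. A sign in them is thus not a place above or below the typical gene. At these depths, members under about 1 TPM rested on few counts, and small changes in them were not detectable.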

Other observations

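Non-coding transcripts named after chromosome 19 ZNF genes were measured beside them. Of 28 antisense, divergent and intronic transcripts, 15 were tested and 13 had a log2 fold change above 0 (86.7%), with a median of 0.28. Above 0 were 50.8% of all genes tested but 45.8% of coding genes, so genes that are not coding were more often above 0. Their own share was not computed, so these signs are not read as particular to ZNF transcripts. The 1 call made 6.67%, against 2.65% higher among all genes tested and 1.87% among coding genes. Genes that are not coding were thus also called higher more often, and this share is not read as particular to ZNF transcripts either. ZNF584-DT, a divergent transcript, was the 1 that rose, from 2.47, 4.33 and 2.63 CPM in DMSO to 5.41, 5.98 and 5.14 CPM in BPAF (log2 change 0.81, SE 0.19, edgeR adjusted p = 0.0163). Its coding neighbour ZNF584 had 57.8 CPM in DMSO and 58.6 CPM in BPAF, a log2 change of 0.02 (edgeR adjusted p = 0.877). ZNF433-AS1 was at 5.56 ± 0.56 CPM in DMSO and 7.13 ± 0.58 CPM in BPAF (SD, n = 3) without overlap and did not pass (edgeR adjusted p = 0.126). Of 18 ZNF pseudogenes of the chromosome, 7 were tested, 6 of them above 0 with a median of 0.23. EdgeR called 0 of the 7, with 0 at an unadjusted p under 0.05, against 3076 of all 15490 genes tested. The same limit holds for the signs of the pseudogenes. Both lists were formed after the data were seen.

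Among 10 other tested zinc finger genes of chromosome 19 with ZFP, ZSCAN, ZKSCAN, ZIM, ZIK, MZF or ZBTB symbols, 2 rose and 0 fell, 20% higher against 2.65% of all genes tested. Among members whose values stood out without a call, ZNF28 reached 107.9 counts in BPAF replicate 3 against 8.93 to 25.9 in the other 5 libraries, while its TPM in that library, 2.98, was the lowest of the 6. ZNF28 shares exon sequence with ZNF468 and its counts were not whole in any library.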
